A study of Homo sapiens with 14 samples.

Results

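DNA replication in human cells depends on a set of proteins that mark origins, unwind and copy the strands, join the copies and supply the nucleotides. The 56 genes described here were a given list of symbols for these proteins, each mapped to its Ensembl gene ID in the deposited count table, which held 61541 gene IDs in all. The list had 12 groups: the MCM helicase, the origin recognition complex, licensing factors, origin firing, polymerase alpha-primase, polymerases delta and epsilon, the clamp and its loader, RPA, Okazaki fragment processing, fork protection, nucleotide supply and E2F factors. RNA came from 6 libraries of a pancreatic cancer line labelled BxPC-3, all at day 3. In 3 libraries the genotype was given as an HDAC5 knockdown by a short hairpin (shHDAC5), and in the other 3 the genotype was wild type with a control hairpin (shControl). GATA1 immunoprecipitation had been done in PANC-1, another pancreatic cancer line, also at day 3, with 2 immunoprecipitations and 2 inputs for shHDAC5 and the same for shControl, and was deposited as 1 peak list per condition. The labels give neither the number of hairpins nor the vector, and do not say whether cells were clones or pools.

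A cell prepares each origin once per cycle: the origin recognition complex, CDC6 and CDT1 load rings of MCM2 to MCM7 in G1 phase, and geminin (GMNN) blocks CDT1 afterwards. CDC7 with DBF4 and cyclin-dependent kinases then turn the loaded ring, with CDC45 and the GINS complex, into the active helicase, behind which the polymerases, the PCNA clamp and the enzymes of lagging-strand processing work. Many of these genes, and those for deoxynucleotide synthesis, are known targets of the E2F transcription factors, and their mRNA is more abundant in proliferating than in resting cells.

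The libraries labelled shHDAC5 held 15935649 to 16889876 counts and those labelled shControl 15179758 to 17854340. Values are given in CPM, which are counts scaled to equal library totals after TMM adjustment. HDAC5, the gene that the hairpin targets by its label, had 162, 161 and 169 CPM in the libraries labelled shHDAC5, against 95.4, 91.7 and 97.7 CPM in those labelled shControl. Its log2 fold change of 0.79 (standard error 0.0358; adjusted p = 3.95e-40 by edgeR) goes against the knockdown label. Directions below are therefore between libraries as labelled. The count of genes with at least 1 read also differed, with 33115 to 33632 genes in the libraries labelled shHDAC5 and 25775 to 26078 in those labelled shControl. The part of that difference in the results below was not tested. Of 10 ductal epithelial markers, KRT19, EPCAM, CDH1 and TFF1 were under 3 CPM in every library, although BxPC-3 is an epithelial line. The 10 summed to between 1378 and 1442 CPM in libraries labelled shHDAC5, against 1679 to 1716 CPM in those labelled shControl. KRT8 took the largest share of that sum, at 1010 ± 25.6 CPM in libraries labelled shHDAC5 and 717 ± 11.95 CPM in those labelled shControl (SD, n = 3 each), and it hides wide moves in both directions. KRT7 averaged 25.3 ± 0.445 CPM in libraries labelled shHDAC5 and 371 ± 9.72 CPM in those labelled shControl, 14.7-fold lower, and MUC1 11.3 ± 1.23 CPM in libraries labelled shHDAC5 and 166 ± 3.49 CPM in those labelled shControl, 14.7-fold lower. CEACAM6 averaged 8.39 ± 0.661 CPM in libraries labelled shHDAC5 and had 0 counts in those labelled shControl. Of the markers of other cell types, 6 of 8 for fibroblasts, 5 of 6 for leukocytes and 5 of 5 for endothelium were under 3 CPM in every library. Fibroblast markers summed to 86.0 to 91.6 CPM in libraries labelled shHDAC5, against 120.8 to 130.8 CPM in those labelled shControl. These sums came mostly from COL1A1, at 79.6 ± 2.40 CPM in libraries labelled shHDAC5 and 92.4 ± 4.13 CPM in those labelled shControl, and PDGFRB, at 6.59 ± 0.309 CPM in libraries labelled shHDAC5 and 29.6 ± 1.70 CPM in those labelled shControl (log2 fold change -2.16). Leukocyte markers summed to 5.26 to 6.74 CPM in libraries labelled shHDAC5, against 3.32 to 4.19 CPM in those labelled shControl, and endothelial markers to 3.58 to 4.18 CPM in libraries labelled shHDAC5, against 1.21 to 1.48 CPM in those labelled shControl. The part of these marker differences in the results was not tested. Whether replicates were separate cultures is in no label, so the p-values rest on the spread between libraries of 1 label, and that spread may be only technical.

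Most replication genes were lower in the libraries labelled shHDAC5. All 56 passed the filter on low counts. At an adjusted p under 0.05 in edgeR's quasi-likelihood test over all genes, 47 fell, 6 rose (ORC4, ORC5, GINS4, PRIM2, CDC7 and RFC1) and 3 did not pass (RPA3, TIPIN and CLSPN). Over the 19181 genes tested, 39.9% fell and 44.8% rose, and over the 13710 coding genes among them 44.4% fell and 44.1% rose. By at least 2-fold, 29 members fell and 2 rose, where 20.1% of all genes fell and 26.4% rose that far. By at least 4-fold, 9 members fell, where 7.97% of all genes did. In 47 members every library labelled shHDAC5 lay below every library labelled shControl, and in 6 every one lay above; over all genes these shares were 39.8% and 45%. The median log2 fold change was -1.10 for the members, a 2.14-fold lower level, within a range of -3.87 to 1.15. It was 0.09 over all genes tested. Members took up 0.296 to 0.299% of all counts in libraries labelled shHDAC5 and 0.558 to 0.562% in those labelled shControl. In bulk RNA, fewer cells in S phase and less of these mRNAs per cell cannot be told apart.

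**Figure D1:**
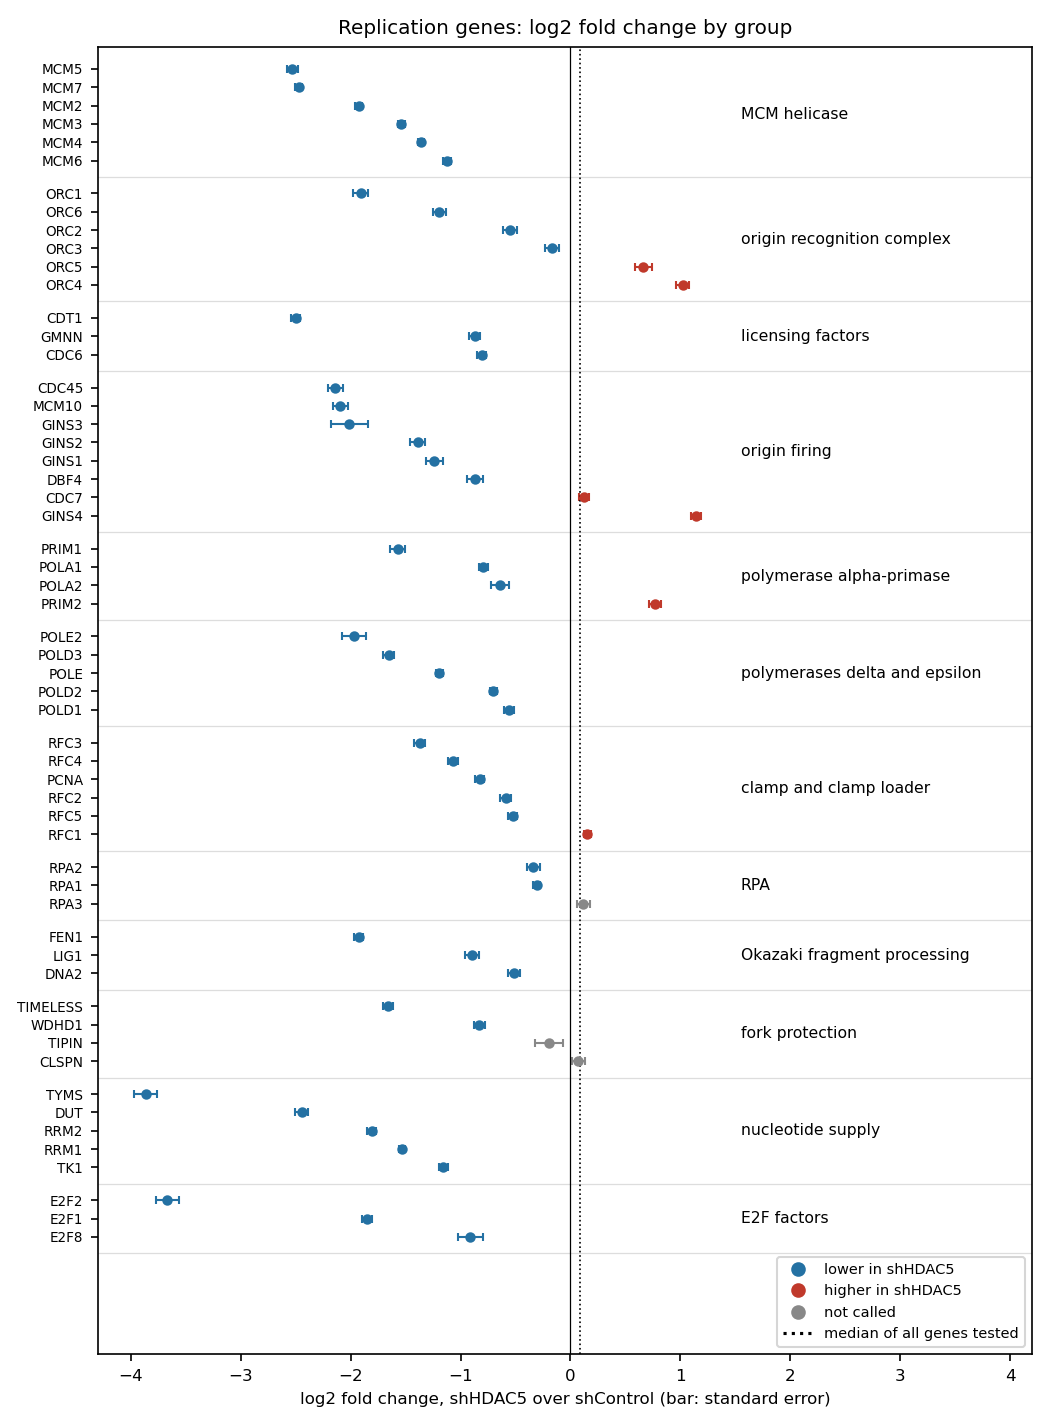
Log2 fold change (shHDAC5 over shControl) of the 56 replication genes, ordered within their 12 groups; points are edgeR estimates, bars standard errors, and colours the call at an adjusted p under 0.05. Of the 56 points, 47 are called lower, and the 6 called higher are ORC5, ORC4, CDC7, GINS4, PRIM2 and RFC1.

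**Figure D2:**
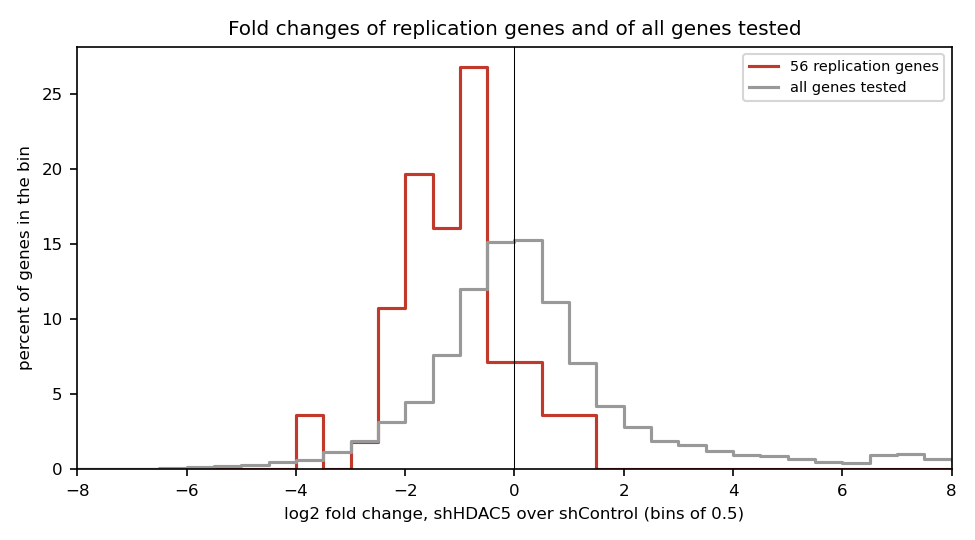
Share of genes in percent by log2 fold change (shHDAC5 over shControl) in bins of 0.5, for the 56 replication genes and for all 19181 genes tested; genes beyond 8 on either side are not drawn. The replication genes centre on a median of -1.10 and all genes on 0.09.

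All 6 subunits of the MCM2 to MCM7 ring, which unwinds DNA at the fork, fell by more than 2-fold. Their median log2 fold change was -1.73, and 20.1% of all genes tested fell by at least 2-fold. MCM5 (ENSG00000100297; chr22:35400140-35455031, GRCh38.p14) changed most, with 22.1, 24.5 and 25.6 CPM in the libraries labelled shHDAC5, against 139.5, 140.1 and 138 CPM in those labelled shControl. The 3 shHDAC5 values lay close together and far below the shControl values. That is a log2 fold change of -2.53 (standard error 0.0484; adjusted p = 6.20e-75 in edgeR's quasi-likelihood test), or 5.78-fold lower. MCM6 (chr2:135839626-135876443) changed least: it had 80.8, 80.8 and 82.9 CPM in the libraries labelled shHDAC5, against 176, 175 and 181 CPM in the libraries labelled shControl, again without overlap. Its log2 fold change was -1.12 (standard error 0.0358; adjusted p = 6.74e-54, edgeR). Between them stood MCM7 at 67.4 ± 3.502 CPM in libraries labelled shHDAC5 against 375 ± 5.69 in those labelled shControl (SD, n = 3 each, as for all means below), a log2 fold change of -2.47. MCM2 averaged 89.3 ± 0.187 CPM in libraries labelled shHDAC5 and 339 ± 8.46 CPM in those labelled shControl (-1.93). The values of MCM3 were 118 ± 2.65 CPM in libraries labelled shHDAC5 and 342 ± 6.46 CPM in those labelled shControl (-1.54), and those of MCM4 143 ± 4.43 CPM in libraries labelled shHDAC5 and 368 ± 10.9 CPM in those labelled shControl (-1.36). MCM7 carries the MIR25, MIR93 and MIR106B hairpins in an intron and overlaps AP4M1.

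Promoters of replication genes are shown because E2F letters recur in them. Each was read from RefSeq (GRCh38.p14), from 250 bases before to 50 bases after the annotated start, and 48 of the 56 members matched; DNA2, E2F8, GINS4, MCM4, MCM5, POLD3, RPA2 and RPA3 did not. The letters searched on both strands were TTTCCCGC, TTTCGCGC, TTTGCCGC and TTTGGCGC for an E2F site. A site stood in 21 of 48 member promoters (43.8%), against 3.33% of 27305 promoters of all genes and 4.44% of 15843 promoters of coding genes. At least 2 matches stood in 5 members (10.4%), against 0.154% of all promoters and 0.234% of coding promoters. These 5 are printed 5′ to 3′ on the strand of the gene, with the matches on either strand in capitals.
MCM7, chr7:100101348-100101647, minus strand: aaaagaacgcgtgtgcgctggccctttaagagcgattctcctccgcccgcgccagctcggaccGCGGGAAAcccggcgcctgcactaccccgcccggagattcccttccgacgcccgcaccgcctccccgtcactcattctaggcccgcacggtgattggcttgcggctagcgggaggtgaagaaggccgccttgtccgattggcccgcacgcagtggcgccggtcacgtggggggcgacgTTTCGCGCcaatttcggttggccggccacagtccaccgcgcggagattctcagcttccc
MCM2, chr3:127598161-127598460, plus strand: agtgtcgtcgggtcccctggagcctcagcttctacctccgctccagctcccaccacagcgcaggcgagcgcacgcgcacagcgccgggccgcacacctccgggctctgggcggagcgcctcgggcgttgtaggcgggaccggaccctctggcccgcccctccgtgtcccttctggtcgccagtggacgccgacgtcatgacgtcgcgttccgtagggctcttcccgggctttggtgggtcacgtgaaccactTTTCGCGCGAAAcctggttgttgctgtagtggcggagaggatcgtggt
E2F1, chr20:33686336-33686635, minus strand: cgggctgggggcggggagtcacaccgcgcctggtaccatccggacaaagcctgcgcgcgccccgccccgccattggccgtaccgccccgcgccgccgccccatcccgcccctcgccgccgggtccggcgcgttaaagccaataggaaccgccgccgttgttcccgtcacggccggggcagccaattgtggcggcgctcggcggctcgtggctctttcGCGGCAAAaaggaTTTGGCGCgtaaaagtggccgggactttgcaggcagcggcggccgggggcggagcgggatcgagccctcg
MCM3, chr6:52284693-52284992, minus strand: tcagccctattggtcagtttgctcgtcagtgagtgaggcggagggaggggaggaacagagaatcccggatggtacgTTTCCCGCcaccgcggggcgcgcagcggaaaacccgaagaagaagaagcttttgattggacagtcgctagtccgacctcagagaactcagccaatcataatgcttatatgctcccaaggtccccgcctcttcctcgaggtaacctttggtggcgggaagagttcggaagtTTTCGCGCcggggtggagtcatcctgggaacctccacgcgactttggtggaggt
MCM6, chr2:135876394-135876693, minus strand: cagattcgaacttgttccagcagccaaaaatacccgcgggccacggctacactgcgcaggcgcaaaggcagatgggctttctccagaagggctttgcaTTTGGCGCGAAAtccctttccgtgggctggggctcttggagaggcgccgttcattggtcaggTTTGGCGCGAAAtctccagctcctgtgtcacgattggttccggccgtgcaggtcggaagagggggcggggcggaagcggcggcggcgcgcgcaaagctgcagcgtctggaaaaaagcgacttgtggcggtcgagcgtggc

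Counted from 0 at the first base of the gene, matches began at -187 and -9 in MCM7, at 2 and 6 in MCM2, at -33 and -20 in E2F1, at -174 and -4 in MCM3, and at -152, -148, -90 and -86 in MCM6. The pairs in MCM2 and MCM6 shared 4 bases each on opposite strands, so each pair is 1 stretch of letters read both ways. Of the 21 member promoters, 18 had a match between 60 bases before and 20 bases after the start. Among members with a site 20 of 21 fell (ORC3 by the smallest amount; CLSPN did not pass), and their median log2 fold change was -1.37. Without a site, 21 of 27 fell, with a median of -0.87. Over coding genes tested that had a promoter entry, 305 of 579 with a site (52.7%) and 44.2% of 10599 without a site fell, with medians of -0.22 and 0.01. A CCAAT box (CCAAT) stood in 26 member promoters (54.2%, against 36.4% of coding promoters), and in MCM7 it shared 1 base with an E2F match. The cell cycle homology region (CHR; TTTGAA or TTCGAA) stood in 3 (6.25%, against 13.5%), and the GATA letters AGATAA in 0 of 48 member promoters, against 7.57% of coding promoters. These are matches of letters and no measurement of binding.

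**Figure D3:**
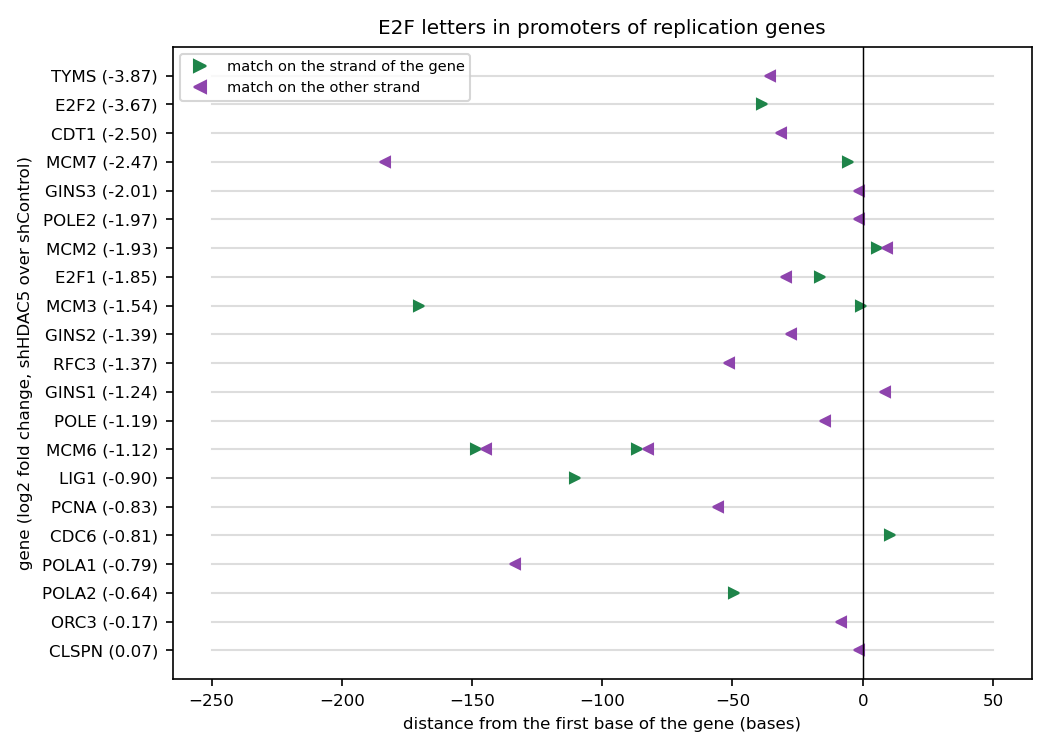
Position of E2F letters (arrowheads, pointing along the strand of the match) in the 21 member promoters that held them, in bases from the first base of the gene, ordered by log2 fold change (shHDAC5 over shControl, in brackets). Of the 21 promoters, 18 have a match between 60 bases before and 20 bases after the start.

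The origin recognition complex, the 6-subunit platform on which the MCM ring is loaded, split by subunit: 4 members fell and 2 rose. All genes tested were split too, with 39.9% lower and 44.8% higher. ORC1 (chr1:52372829-52409503), the cell-cycle-regulated ATPase subunit, had 17.2, 15.4 and 14.8 CPM in the libraries labelled shHDAC5, against 57.2, 61.1 and 59.5 CPM in those labelled shControl. The groups stood well apart, with a log2 fold change of -1.91 (standard error 0.0656; adjusted p = 8.73e-51, edgeR). ORC4 (chr2:147930396-148021551) went the other way, with 51.8, 54.1 and 54.2 CPM in the libraries labelled shHDAC5, against 26.6, 25.6 and 26.6 CPM in the libraries labelled shControl. All 3 shHDAC5 libraries were above all 3 shControl libraries, at a log2 fold change of 1.02 (standard error 0.0595; adjusted p = 1.62e-31, edgeR). ORC5 also rose, with 30.9, 27.2 and 27.0 CPM in the libraries labelled shHDAC5, against 16.7, 17.7 and 19.1 CPM in those labelled shControl. It did not overlap between groups, and its log2 fold change was 0.66 (standard error 0.0780; adjusted p = 2.87e-13, edgeR). ORC6, ORC2 and ORC3 fell by 1.19, 0.55 and 0.17 on the log2 scale. ORC3 averaged 29.99 ± 0.574 CPM in libraries labelled shHDAC5 and 33.7 ± 0.448 CPM in those labelled shControl, and its call was lost with upper-quartile scaling (adjusted p = 0.721, edgeR) and with DESeq2 (adjusted p = 0.105), while with total counts in place of TMM its log2 fold change was 0.02 (adjusted p = 0.792). On the genome, ORC4 overlaps ACVR2A and MBD5, ORC1 overlaps PRPF38A and ORC3 overlaps AKIRIN2, and no source used here says whether counting used strand.

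All 3 licensing factors fell, as did 39.9% of all genes tested. CDT1 (chr16:88803789-88809258), which brings the MCM ring to the origin, had 33.0, 32.8 and 33.4 CPM in the libraries labelled shHDAC5, against 180.1, 182 and 199 CPM in those labelled shControl. The shHDAC5 values were nearly equal to each other and the groups lay far apart. The log2 fold change was -2.50 (standard error 0.0432; adjusted p = 3.38e-79, edgeR), 5.66-fold lower. CDC6, the ATPase that works with it, had 64.3, 68.3 and 62.9 CPM in the libraries labelled shHDAC5, against 112, 116 and 115 CPM in the libraries labelled shControl, also without overlap, a log2 fold change of -0.81 (standard error 0.0412; adjusted p = 5.06e-36, edgeR). GMNN, the inhibitor of CDT1, averaged 42.2 ± 0.617 CPM in libraries labelled shHDAC5 and 77.3 ± 2.08 CPM in those labelled shControl and fell by 0.87 on the log2 scale.

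Of the 8 genes that turn a loaded helicase into a moving fork, 6 fell and 2 rose. The shares over all genes tested were 39.9% lower and 44.8% higher. CDC45 (chr22:19479466-19520612), a core part of the active helicase, had 13.9, 14.6 and 16.2 CPM in the libraries labelled shHDAC5, against 65.5, 66.5 and 65.1 CPM in those labelled shControl. No library overlapped the other group, and the log2 fold change was -2.14 (standard error 0.0643; adjusted p = 3.92e-56, edgeR). GINS4, a subunit of the 4-part GINS complex that binds the ring, was the member with the largest rise, with 96.7, 94.6 and 99.6 CPM in the libraries labelled shHDAC5, against 44.9, 42.7 and 43.9 CPM in the libraries labelled shControl. Every shHDAC5 library held over 2 times the CPM of every shControl library. Its log2 fold change was 1.15 (standard error 0.0461; adjusted p = 1.18e-44, edgeR), while its partners GINS1, GINS2 and GINS3 fell by 1.24, 1.39 and 2.01 on the same scale. GINS3 averaged 2.27 ± 0.597 CPM in libraries labelled shHDAC5 and 9.14 ± 1.12 CPM in those labelled shControl. MCM10, which helps to start unwinding, averaged 13.4 ± 2.01 CPM in libraries labelled shHDAC5 and 57.1 ± 1.89 CPM in those labelled shControl, a log2 fold change of -2.09. CDC7, the kinase that fires origins, had 70.5, 72.3 and 68.7 CPM in the libraries labelled shHDAC5, against 66.0, 63.7 and 64.0 CPM in those labelled shControl. The groups did not overlap but were close, with a log2 fold change of 0.13 (standard error 0.0454; adjusted p = 0.0083, edgeR), near the 0.09 that was the median over all genes. The CDC7 call was lost without shHDAC5 replicate 2 (adjusted p = 0.0604, edgeR), without shControl replicate 2 (0.0622) and without shControl replicate 3 (0.0681). DBF4, its activating subunit, averaged 20.9 ± 1.70 CPM in libraries labelled shHDAC5 and 38.1 ± 0.985 CPM in those labelled shControl and fell by 0.87 on the log2 scale.

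Among the replicative polymerases, 8 of 9 genes fell, where 39.9% of all genes tested did. Polymerase alpha-primase lays the RNA-DNA primers, and its catalytic primase subunit PRIM1 had 14.8, 15.3 and 15.4 CPM in the libraries labelled shHDAC5, against 47.0, 43.7 and 44.7 CPM in those labelled shControl. Its groups were far apart (log2 fold change -1.57, standard error 0.0703, adjusted p = 1.08e-40, edgeR). PRIM2, the large primase subunit, was instead higher, with 62.5, 56.9 and 65.3 CPM in the libraries labelled shHDAC5, against 35.9, 36.1 and 36.7 CPM in the libraries labelled shControl. It did not overlap either (log2 fold change 0.77, standard error 0.0546, adjusted p = 3.25e-25, edgeR), and it overlaps RAB23 on the genome. POLA1, the polymerase itself, and POLA2, its accessory subunit, fell by 0.79 and 0.64 on the log2 scale. All 5 genes of polymerases delta and epsilon, the lagging-strand and leading-strand enzymes, fell. POLE2, an accessory subunit of epsilon, had 5.02, 6.36 and 5.31 CPM in the libraries labelled shHDAC5, against 22.7, 19.9 and 22.6 CPM in those labelled shControl. That gave the lowest log2 fold change of the 5, -1.97 (standard error 0.109; adjusted p = 2.64e-33, edgeR). POLD1, the catalytic subunit of delta, changed least of the 5, with 66.4, 63.2 and 58.2 CPM in the libraries labelled shHDAC5, against 90.6, 91.0 and 94.1 CPM in the libraries labelled shControl. Its groups still did not overlap (log2 fold change -0.56, standard error 0.0441, adjusted p = 3.54e-22, edgeR). POLE, the catalytic subunit of epsilon, averaged 91.3 ± 3.87 CPM in libraries labelled shHDAC5 and 208 ± 8.98 CPM in those labelled shControl (-1.19), and POLD3 and POLD2, accessory subunits of delta, had log2 fold changes of -1.66 and -0.70.

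The sliding clamp and its loader fell except for the largest loader subunit, where 39.9% of all genes tested fell and 44.8% rose. RFC3, a small subunit of the loader, had 33.4, 33.2 and 35.3 CPM in the libraries labelled shHDAC5, against 88.8, 83.4 and 91.7 CPM in those labelled shControl. The groups were clearly separate, with a log2 fold change of -1.37 (standard error 0.0502; adjusted p = 2.28e-48, edgeR). RFC1, the large subunit, had 164, 169 and 167 CPM in the libraries labelled shHDAC5, against 156, 145 and 147 CPM in the libraries labelled shControl. Its groups lay next to each other without overlap, and it rose by 0.16 on the log2 scale (standard error 0.0331, adjusted p = 1.22e-05, edgeR). That rise was small, as the median over all genes was 0.09. PCNA, the clamp, averaged 73.8 ± 3.67 CPM in libraries labelled shHDAC5 and 131 ± 1.95 CPM in those labelled shControl, a log2 fold change of -0.83, and RFC4, RFC2 and RFC5 fell by 1.07, 0.59 and 0.52.

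RPA, the 3-subunit protein that coats single-stranded DNA, had the median closest to 0 of the 12 groups, -0.31 on the log2 scale. RPA2 had 35.1, 35.5 and 38.0 CPM in the libraries labelled shHDAC5, against 43.8, 49.0 and 44.8 CPM in those labelled shControl, a log2 fold change of -0.34 (standard error 0.0582; adjusted p = 1.09e-07, edgeR). RPA1, the largest subunit, had 180.0, 179 and 183 CPM in the libraries labelled shHDAC5, against 213, 229 and 229 CPM in the libraries labelled shControl (log2 fold change -0.31, standard error 0.0310, adjusted p = 2.76e-16, edgeR). For both, the groups did not overlap, but the step between them was small. RPA3 had 45.0, 40.3 and 43.4 CPM in the libraries labelled shHDAC5 and 36.2, 42.8 and 39.9 CPM in those labelled shControl, which overlapped. Its log2 fold change of 0.12 (standard error 0.0590) did not pass (adjusted p = 0.0617, edgeR), and with total counts in place of TMM it did, as higher (adjusted p = 1.96e-06). It also passed without shHDAC5 replicate 2 (adjusted p = 0.0306) and without shControl replicate 2 (0.023, edgeR). The 3 genes of Okazaki fragment processing fell, as did 39.9% of all genes tested. FEN1 (chr11:61792911-61797238), the flap endonuclease, had 45.5, 43.2 and 43.8 CPM in the libraries labelled shHDAC5, against 168, 168 and 167 CPM in those labelled shControl. Its libraries agreed closely within each group (log2 fold change -1.93, standard error 0.0405, adjusted p = 5.98e-71, edgeR). DNA2, a nuclease for long flaps, had 32.8, 36.1 and 32.9 CPM in the libraries labelled shHDAC5, against 49.0, 46.9 and 49.4 CPM in the libraries labelled shControl, a smaller step of -0.51 (standard error 0.0579; adjusted p = 4.85e-14, edgeR), and LIG1, which seals the nicks, had a log2 fold change of -0.90.

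Fork protection was mixed: 2 genes fell and 2 did not pass, where 39.9% of all genes tested fell and 44.8% rose. TIMELESS, which holds helicase and polymerase together, had 39.5, 38.3 and 41.2 CPM in the libraries labelled shHDAC5, against 128, 121 and 127 CPM in those labelled shControl. The groups were widely separated (log2 fold change -1.66, standard error 0.0445, adjusted p = 9.37e-61, edgeR). Its binding partner TIPIN had 8.10, 8.25 and 7.72 CPM in the libraries labelled shHDAC5 and 7.72, 11.5 and 8.45 CPM in those labelled shControl. These overlapped, and the log2 fold change of -0.19 (standard error 0.126) did not pass (adjusted p = 0.15, edgeR); without shControl replicate 1, it did (adjusted p = 0.0231). CLSPN, the adaptor that passes the stalled-fork signal to CHEK1, had 40.1, 41.7 and 38.4 CPM in the libraries labelled shHDAC5 and 36.2, 38.8 and 39.4 CPM in those labelled shControl. It overlapped as well (log2 fold change 0.07, standard error 0.0591, adjusted p = 0.266, edgeR), and it passed as higher with total counts (adjusted p = 4.83e-05). WDHD1, which ties polymerase alpha to the helicase, had 41.0, 36.5 and 37.9 CPM in the libraries labelled shHDAC5, against 69.7, 66.1 and 68.9 CPM in those labelled shControl, and fell by 0.83 on the log2 scale (standard error 0.0519; adjusted p = 3.77e-29, edgeR).

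All 5 nucleotide supply genes fell by more than 2-fold, with a median log2 fold change of -1.81. Falls of at least 2-fold were seen in 20.1% of all genes tested. TYMS (ENSG00000176890; chr18:657653-673578), the thymidylate synthase that makes dTMP, had the lowest fold change of all 56 members. It had 3.96, 2.12 and 2.91 CPM in the libraries labelled shHDAC5, against 41.6, 45.9 and 43.5 CPM in those labelled shControl, so that each shHDAC5 library was below 4 CPM. Its log2 fold change was -3.87 (standard error 0.106; adjusted p = 5.24e-60, edgeR), 14.6-fold lower, and it overlaps ENOSF1. TK1, the salvage enzyme thymidine kinase, had 63.2, 62.6 and 61.1 CPM in the libraries labelled shHDAC5, against 135, 139 and 143 CPM in the libraries labelled shControl. It changed least of the group, without overlap (log2 fold change -1.16, standard error 0.0396, adjusted p = 7.11e-51, edgeR). DUT, which removes dUTP, averaged 17.3 ± 1.74 CPM in libraries labelled shHDAC5 and 93.9 ± 3.01 CPM in those labelled shControl (-2.45). The ribonucleotide reductase subunits RRM1 and RRM2 had log2 fold changes of -1.53 and -1.81.

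The 3 E2F factors among the members all fell, where 39.9% of all genes tested did. Other E2F genes, given below, did not all fall. E2F2 (chr1:23505212-23531233), an activator, had 2.84, 2.75 and 3.75 CPM in the libraries labelled shHDAC5, against 37.9, 39.4 and 42.0 CPM in those labelled shControl. It was the member with the second lowest fold change, -3.67 on the log2 scale (standard error 0.105; adjusted p = 2.35e-58, edgeR), or 12.7-fold lower. E2F1 (chr20:33675477-33686385), another activator, whose promoter with a pair of E2F matches is printed above, had 33.1, 32.6 and 35.1 CPM in the libraries labelled shHDAC5, against 122, 118 and 124 CPM in the libraries labelled shControl. The groups were far apart (log2 fold change -1.85, standard error 0.0462, adjusted p = 9.67e-64, edgeR). E2F8, an atypical member that represses E2F targets, had 7.15, 7.04 and 7.77 CPM in the libraries labelled shHDAC5, against 12.6, 14.5 and 14.2 CPM in those labelled shControl. This repressor had a log2 fold change of -0.91 (standard error 0.114; adjusted p = 3.58e-12, edgeR), again without overlap.

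**Figure D4:**
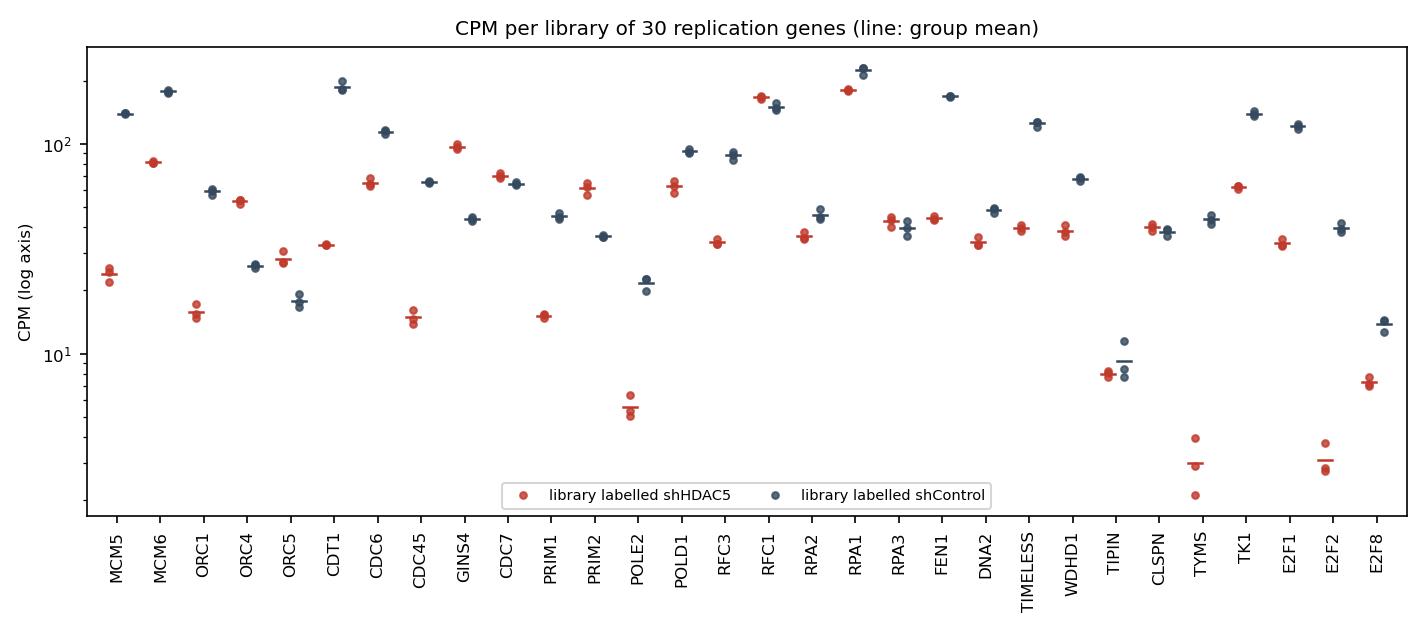
CPM on a log axis in each of the 6 libraries for 30 replication genes, with the libraries labelled shHDAC5 left of those labelled shControl and a line at each group mean. The groups overlap for RPA3, TIPIN and CLSPN; ORC4, ORC5, GINS4, CDC7, PRIM2 and RFC1 are higher in libraries labelled shHDAC5.

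Ratios between partner genes within a library hardly depend on how libraries are scaled. CDT1 over its inhibitor GMNN was -0.35 ± 0.029 on the log2 scale in the libraries labelled shHDAC5, against 1.27 ± 0.077 in those labelled shControl, a difference of -1.62. The MCM2 to MCM7 mean over the ORC2 to ORC5 mean was 1.19 ± 0.0277 in libraries labelled shHDAC5 and 3.26 ± 0.00606 in those labelled shControl. ORC1 over the same ORC2 to ORC5 mean was -1.08 ± 0.124 in libraries labelled shHDAC5 and 1.07 ± 0.0512 in those labelled shControl. RRM2 over RRM2B, the p53-inducible form of the small reductase subunit, was -0.77 ± 0.0686 in libraries labelled shHDAC5 and 1.87 ± 0.0547 in those labelled shControl. E2F1 over E2F8 was 2.18 ± 0.0202 in libraries labelled shHDAC5 and 3.13 ± 0.121 in those labelled shControl, and DBF4 over CDC7 was -1.75 ± 0.102 in libraries labelled shHDAC5 and -0.76 ± 0.0577 in those labelled shControl. CCNE1 over CCNA2, cyclins of S phase entry and of S phase itself, was higher in libraries labelled shHDAC5, at 1.12 ± 0.135, against -1.57 ± 0.0418 in those labelled shControl. For these 7 ratios the groups did not overlap, and the exact two-sided permutation p was 0.1, the smallest that 3 against 3 libraries can give (0.114 adjusted over the 8 ratios), so none could pass. Among all single genes tested, 39.8% did not overlap as lower and 45% as higher, and ratios of other gene pairs were not computed. POLE over POLE3, subunits of the same polymerase, was 1.32 ± 0.0686 in libraries labelled shHDAC5 and 1.39 ± 0.14 in those labelled shControl, with overlap (exact permutation p = 0.6).

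**Figure D5:**
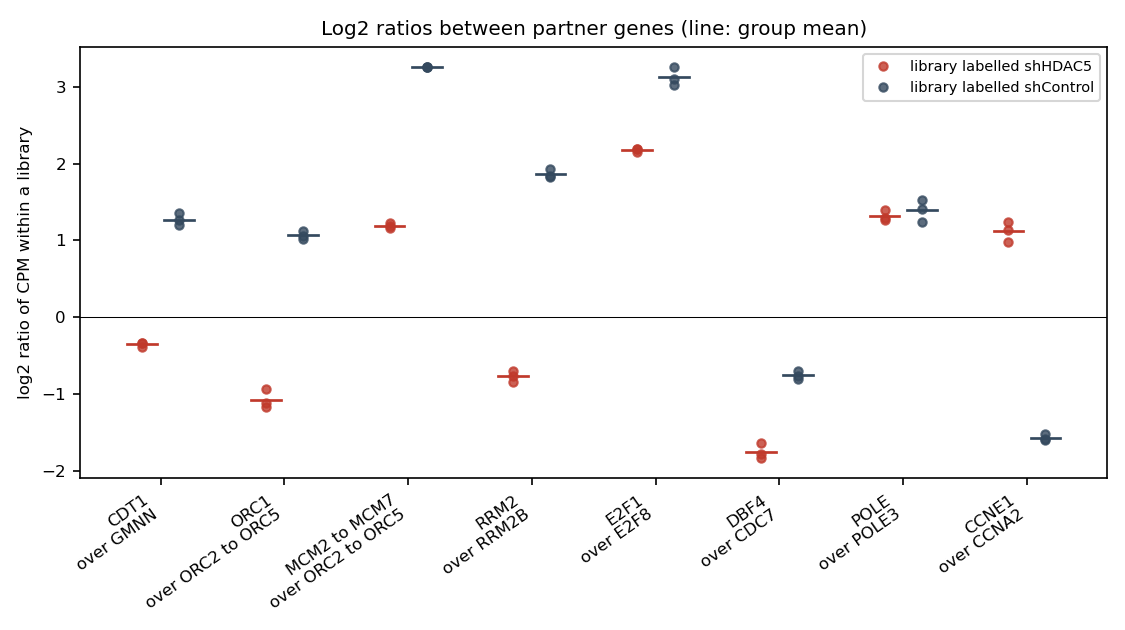
Log2 ratio of CPM between partner genes in each library, with libraries labelled shHDAC5 left of those labelled shControl and a line at each group mean. In 7 of the 8 ratios the groups do not overlap, where 39.8% of all single genes do not overlap as lower and 45% as higher. CDT1 over GMNN averages -0.35 in libraries labelled shHDAC5 and 1.27 in those labelled shControl.

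Genes around the replication machinery were read from 9 further lists with 122 tested genes, of which 90 fell, 25 rose and 7 did not pass in edgeR's test. Over all genes tested, 39.9% fell and 44.8% rose. The median log2 fold change of the 122 was -1.10, against 0.09 over all genes. Of 24 other replisome and licensing genes, 17 fell and 6 rose, from PCLAF, a PCNA-binding factor, at 4.63 ± 0.206 CPM in libraries labelled shHDAC5 and 26.6 ± 2.18 in those labelled shControl (-2.52), to LRWD1, which stabilises the origin recognition complex on chromatin, at 67.7 ± 2.30 CPM in libraries labelled shHDAC5 and 21.2 ± 2.22 in those labelled shControl (1.67). POLE3 fell by 1.13. Chromatin assembly at forks moved 1 way: all 12 genes fell, between UHRF1, which guides maintenance methylation, at -2.64 and SLBP, which binds histone mRNA, at -0.29. Of 14 other nucleotide supply genes 10 fell and 3 rose. CTPS2, a CTP synthase, was at -3.11 on the log2 scale, whereas SAMHD1, which degrades dNTPs, rose by 1.02 and RRM2B by 0.83. Of 18 other E2F, DP, pocket protein and MuvB genes, 12 fell and 3 rose, from FOXM1, a mitotic transcription factor, at -3.62 to LIN37, a MuvB subunit, at 1.97. Among the E2F genes of that list, E2F4 (0.32) and E2F6 (0.20) rose. E2F5 (-0.15) did not pass, and E2F3 (-1.985) and E2F7 (-0.35) fell.

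In the list of S phase cyclins and kinases with their inhibitors, 9 of 12 fell and 2 rose. The gene that fell most was an inhibitor: CDKN1B (p27) averaged 6.53 ± 1.35 CPM in libraries labelled shHDAC5 and 117 ± 2.36 CPM in those labelled shControl, a log2 fold change of -4.16 (standard error 0.0680; adjusted p = 1.64e-81, edgeR). Another inhibitor of the same family, CDKN1C (p57), rose by 1.57, to 148 ± 0.354 CPM in libraries labelled shHDAC5, against 49.7 ± 4.08 CPM in those labelled shControl. CDKN1A, also of that family, rose by 0.49, to 224 ± 6.31 CPM in libraries labelled shHDAC5, against 159 ± 1.97 CPM in those labelled shControl. CCNA2, the cyclin of S phase, fell by 2.63, and CCNE1 averaged 35.7 ± 1.63 CPM in libraries labelled shHDAC5 and 34.2 ± 1.78 CPM in those labelled shControl (0.06; adjusted p = 0.352, edgeR). S phase checkpoint genes were divided, with 8 lower and 4 higher, between the kinase WEE1 at -2.15 and the checkpoint clamp subunit HUS1 at 1.34. Genes of translesion synthesis and related polymerases were divided too, with 6 lower and 4 higher, between POLQ at -1.63 and POLN at 2.44. Mitochondrial DNA replication, which uses other enzymes, had 4 of 8 genes lower, 3 higher and a median of -0.15, shares near those over all genes (39.9% lower, 44.8% higher), between the exonuclease MGME1 at -2.23 and the polymerase subunit POLG2 at 0.54. All 12 markers of mitosis fell, with a median of -2.25, between the kinase AURKB at -3.37 and the kinase BUB1 at -0.57. The number of cycling cells was not measured, and its part in the values of the replication genes was not tested.

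Compared per length, in TPM, PCNA was the most abundant member in libraries labelled shHDAC5, at 199 ± 10.96 TPM (SD, n = 3), ahead of TK1 at 128 ± 2.90 TPM. In libraries labelled shControl, MCM3 at 329.6 ± 6.22 TPM and PCNA at 328 ± 6.43 TPM did not differ beyond their spread. The least abundant were GINS3 and E2F2 in libraries labelled shHDAC5, at 1.68 ± 0.442 and 2.15 ± 0.369 TPM, and GINS3 and ORC4 in those labelled shControl, at 6.29 ± 0.829 and 10.4 ± 0.253 TPM. These orders, and those of subunits below, depend on the gene lengths used, such as 1403 bases for PCNA and 5492 for RPA1. In CPM, without length, RPA1 averaged 181 ± 2.08 and PCNA 73.8 ± 3.67 in libraries labelled shHDAC5. Whether the lengths match the transcripts present was not tested. Subunits of fixed complexes drew apart in some cases and together in others, a measure added after the data were seen. The highest TPM over the lowest TPM among MCM2 to MCM7 was 9.80 ± 0.851 in libraries labelled shHDAC5 and 4.90 ± 0.075 in those labelled shControl, with MCM3 highest and MCM5 lowest in every library. Among GINS1 to GINS4 the ratio was 41.8 ± 9.62 in libraries labelled shHDAC5 and 7.47 ± 1.16 in those labelled shControl. GINS3 was lowest in every library, with only 33 to 50 counts in those labelled shHDAC5. Among RFC2 to RFC5, without the large loader subunit RFC1, the ratio was 1.94 ± 0.0441 in libraries labelled shHDAC5 and 1.14 ± 0.0248 in those labelled shControl. Among ORC1 to ORC6 it was instead smaller in libraries labelled shHDAC5, at 1.66 ± 0.237, against 6.45 ± 0.344 in those labelled shControl. The groups did not overlap in any of the 4, at an exact permutation p of 0.1 each. Of all single genes tested, 39.8% did not overlap as lower and 45% as higher. That share is for single genes, and highest-over-lowest ratios of other gene sets were not computed.

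GATA1 peaks in PANC-1 were read at the starts of replication genes and of all coding genes. A summit lay within 1 kb of the RefSeq start in 11 of 48 members (22.9%) in the list labelled shHDAC5, where 22.5% of 15843 coding genes had one, and in 23 of 48 members (47.9%) in the list labelled shControl, where 46.6% had one. Within 2 kb, it was 12 of 48 members (25%) against 33.4% of coding genes in the list labelled shHDAC5, and 23 of 48 (47.9%) against 53.3% in the list labelled shControl. E2F1, FEN1, POLE, RRM1 and RRM2 had a summit in both lists. The −log10 q was 0 for E2F1, FEN1, POLE and RRM2 in the list labelled shHDAC5, and for RRM1 in that labelled shControl. Only 1045 peaks in the list labelled shHDAC5 and 6176 in that labelled shControl had the authors' q at or below 0.05. None of the 48 had a summit with the authors' q at or below 0.05 in either list, where 0.252% of coding genes in the list labelled shHDAC5 and 5.74% in that labelled shControl did. The list labelled shHDAC5 held 249139 peaks and that labelled shControl 121070, with no replicate lists, so there was no test. Peak names inside the list labelled shHDAC5 carry NC, which the titles of the shControl samples use, and those inside the list labelled shControl carry SAHA, so which sample each list came from is uncertain.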

How the data were processed

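RNA was measured in 6 libraries (3 per label) and GATA1 binding in 2 immunoprecipitations per label, with 2 inputs per label. The deposited RNA table holds raw read counts per Ensembl gene, not normalized. Per the submitters' processing notes, the tools were featureCounts 2.0.1, MACS2 2.2.7.1, fastp 0.23.2, deepTools 3.5.0 and FastQC 0.11.9, without roles, and the build was hg38. No source used here names the aligner, the annotation release or the strand setting. In each deposited peak list the fold enrichment (a ratio) and the −log10 q per peak are the authors' own, and no source used here says whether samples were pooled.

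Groups came from the sample titles. Counts were filtered (filterByExpr), scaled by TMM and tested with the edgeR (version 4.0.16) quasi-likelihood test over all genes, p-values being adjusted by Benjamini-Hochberg and called under 0.05; standard errors came from the F statistic. R 4.3.3, limma 3.58.1, DESeq2 1.42.0, Python 3.11.15, pandas 2.3.3 and matplotlib 3.10.9 were used. TPM used the length column of the count table, and ratios a prior count of 2. Symbols were found for 61369 of 61541 gene IDs. The test was checked on simulated counts in which few genes changed. That check does not cover data such as these, where 39.9% of genes fell and 44.8% rose. Replicates differed by more than sampling noise, with a chi-square per gene of 1.57 to 2.07, so none was counted as a duplicate. Of the 56 members, 31 overlap another annotated gene, 9 of them a coding gene. Named pseudogenes exist for 13 members, and no single pseudogene had more than 0.608% of its member's counts. Some members have several, and their counts were not summed.

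Members and lists were chosen with earlier results of these data known. Named in full are, per member group, the called genes with the lowest and the highest fold change, every member not lower, and E2F1, E2F2 and E2F8. Per further list, the called genes at both ends and ratio partners are named, with CDKN1A added beside CDKN1B and CDKN1C. The E2F genes that are not members were added as well. Inputs were not analysed here. Alternatives were DESeq2, other scalings and filters, stricter thresholds, a replicate block and leaving out each library.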

Additional observations from a re-analysis of the deposited data

How the results depend on the processing

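Over 13 alternative fits, 51 of 56 members kept the same call; CDC7, CLSPN, ORC3, RPA3 and TIPIN did not. The cause was not tested. Asking for a 2-fold change left 29 members lower and 2 higher, and 3846 and 5071 of all genes. The median log2 fold change of the members was -1.06 with DESeq2 and with RLE factors, -0.95 with upper-quartile factors, -0.91 with total counts, -1.14 without a filter and -1.07 with a minimum of 1 CPM in 3 libraries. Leaving out a library gave medians of -1.12 to -1.10, 47 to 48 members lower and 5 to 6 higher. The median over all genes, 0.09 as reported, was 0.23 with upper-quartile factors, 0.27 with total counts and 0.68 without a filter, so with both other scalings the members and all genes moved up together. The log2 fold change of ORC3 turned to 0.0185 with total counts. CDC7 also lost its call without a filter, and CCNE1 passed as higher with upper-quartile factors and total counts. Numbers shared by replicates did not pair the libraries: correlations of deviations were -0.0126, 0.00258 and 0.00593 for replicates 1, 2 and 3. With the replicate block, 47 members were lower and 6 higher, with a median of -1.10, and no call changed. Only shHDAC5 replicate 3 correlated best with the shControl library of its own number. Ratios kept their direction under each alternative. No member had a peak with q at or below 0.05 (0 in the list labelled shHDAC5 and 0 in that labelled shControl), and a shorter E2F core of 7 bases was found in 32 of 48 member promoters (66.7%), against 17.1% of coding promoters, where the reported site was in 43.8% and 4.44%; the ratio of these shares is thus smaller for the shorter core. With 3 libraries per group, an exact test of a single value cannot go below 0.1.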
